A study of Caenorhabditis elegans with 20 samples.

Results

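bcat-1(hh58) mutants of the nematode Caenorhabditis elegans were compared with wild-type animals by RNA sequencing of whole worms on day 1 of adulthood. The comparison was defined by the genotype labels and used 4 bcat-1(hh58) and 4 wild-type samples, 8 of the 20 samples of the series. The other strains, with 4 samples each, carried ivd-1(tm6784), hecd-1(tm2371), or ivd-1(tm6784) together with bcat-1(hh58) (the double mutant). No strain received a treatment, and all were in the N2 background, grown at the same temperature on Escherichia coli OP50. The hh58 allele was made by genome editing and places an early stop codon in the first exon of bcat-1; by the study's account a start codon further downstream may still be used, so the loss of function may be partial. It was outcrossed, and the mutant group is 1 edited strain. Cultures were synchronised from eggs, and for strains that develop more slowly either synchronisation or collection was shifted by the strain's generation time, so genotype and exact age at collection cannot be told apart. The study describes its replicates as separate experiments, and the labels say nothing of separate cultures. The p-values below measure the spread between samples of a strain, estimated jointly over all 20 samples of the series.

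BCAT-1 is the branched-chain aminotransferase, which removes the amino group from leucine, isoleucine and valine as the first step of their breakdown. The branched-chain keto acids are then converted to acyl-CoAs by the branched-chain keto acid dehydrogenase complex, and IVD-1 acts further down the leucine branch. Isoleucine and valine breakdown yields propionyl-CoA, which worms metabolise either by the canonical vitamin B12-dependent pathway or by the propionate shunt, whose first enzyme is ACDH-1. The series addresses how these enzymes affect the turnover of ubiquitin-tagged proteins in the worm.

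The values are FPKM, fragments per kilobase of transcript, scaled to the sequenced fragments of a library. The FPKM of a sample summed to 1034751 to 1111257 in the mutant group and to 1075688 to 1118692 in wild-type, and the number of fragments behind them is unknown. Of 46284 genes listed, 15957 had at least 0.5 FPKM in at least 4 of the 20 samples and were tested by limma on log2(FPKM + 0.5), a scale that understates changes of low genes. Values written as x ± y below are log2 fold changes of bcat-1(hh58) over wild-type with their SE, unless FPKM are named. Genes with an adjusted p (Benjamini-Hochberg) of at most 0.05 are referred to as called. Between bcat-1(hh58) and wild-type 7055 genes were called, 44.2% of those tested. Of the tested genes 33.9% were higher and 10.3% lower in the mutant, and these shares are the background for the list counts given on the deposited scale. All 4 values of one strain lay above all 4 of the other for 38.2% of tested genes, with the mutant above for 29.5% and below for 8.67%. Called changes of 2-fold or more were found for 1706 higher genes (10.7% of those tested) and 90 lower genes (0.564%), and 8-fold or more for 275 higher and 9 lower genes.

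The direction of small changes depended on the scaling. On the deposited scale 76.6% of called genes were higher in bcat-1(hh58), against 49.8% after median-of-ratios scaling and 34.6% after quantile normalization, and the all-gene median of the log2 fold change was 0.17, 0.02 and -0.14 on the 3 scales. Of all tested genes, 24.6% were called higher and 24.8% lower after median-of-ratios scaling, and 15.9% higher and 30% lower after quantile normalization, and list counts on those scales are to be read against these shares. A called direction was shared by all 3 scalings for 3868 genes, of which 2292 were higher and 1576 lower. Of the 2-fold changes, 1507 of 1706 higher and 90 of 90 lower genes kept their call. Every gene named below kept its direction under all 3 scalings unless stated otherwise.

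**Figure D1:**
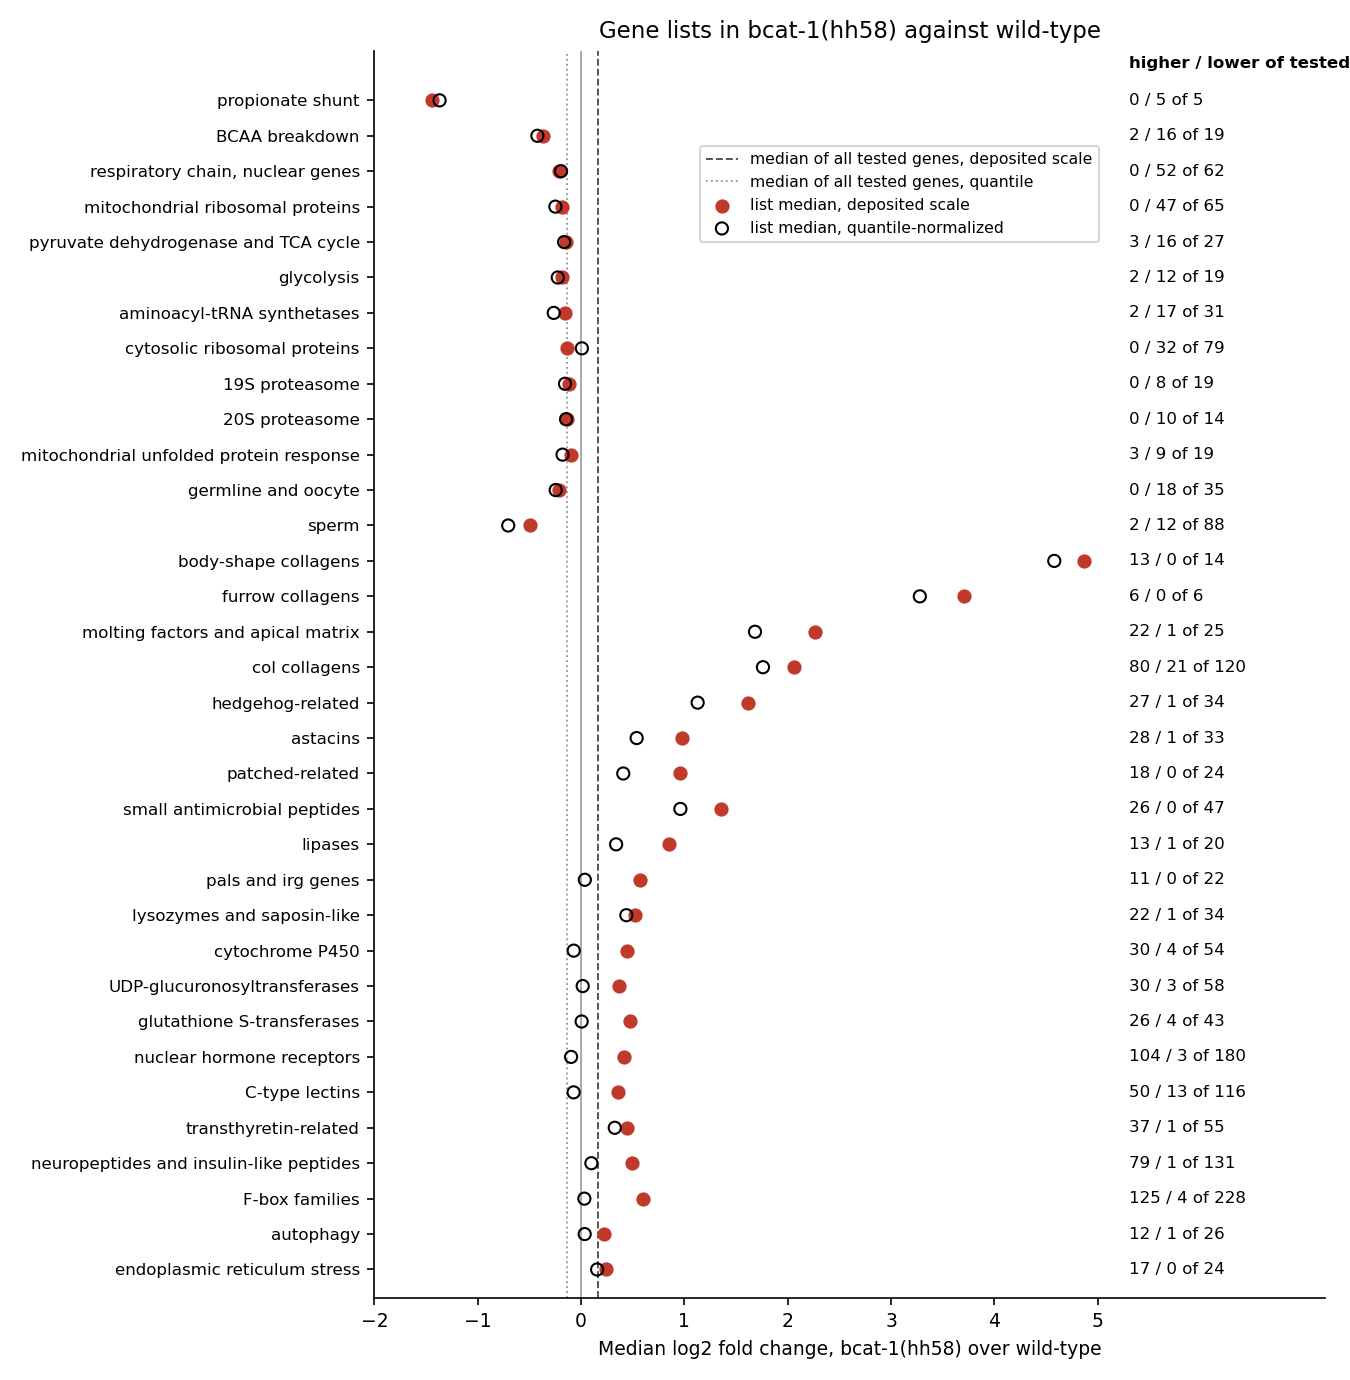
Median log2 fold change of bcat-1(hh58) over wild-type for 34 gene lists on the deposited scale (filled) and after quantile normalization (open), with the medians of all tested genes as vertical lines and, at the right, the members called higher and lower of those tested. Propionate shunt and branched-chain amino acid lists sit left of both lines and cuticle lists far to the right on both scales, whereas the medians of the cytochrome P450, nuclear hormone receptor and C-type lectin lists turn from above 0 to below 0 after quantile normalization and that of the cytosolic ribosomal proteins from below 0 to 0.01.

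Enzymes of branched-chain amino acid breakdown were mostly lower in bcat-1(hh58), and bcat-1 itself was higher. Of the enzymes in this list 2 of 19 tested were higher and 16 lower, with a median log2 fold change of -0.37 (quantile -0.42). The transcript of bcat-1 itself (WBGene00001149, WBcel235 X:12877480-12880328) had 214, 197, 207 and 218 FPKM in bcat-1(hh58) animals, against 141.8, 145, 123 and 129 FPKM in wild-type animals. All 4 mutant values lay above all wild-type values (log2 fold change 0.63 ± 0.11 (SE), limma adjusted p = 0.000125). An early stop codon need not lower a transcript, so this level does not check the allele. The transcript of ivd-1, the isovaleryl-CoA dehydrogenase of leucine breakdown, had 126, 127, 127 and 123 FPKM in bcat-1(hh58) animals, against 224, 230.4, 206 and 209 FPKM in wild-type animals. The mutant values lay within a narrow range and did not overlap with wild-type (log2 fold change -0.79 ± 0.05 (SE), limma adjusted p = 4.17e-09).

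Genes of the keto acid dehydrogenase complex moved less. Log2 fold changes were -0.37 ± 0.04 for bckd-1A, which encodes a subunit of its first enzyme, -0.31 ± 0.04 for dbt-1, its transacylase, and -0.28 ± 0.03 for dld-1, the lipoamide dehydrogenase shared with other keto acid dehydrogenases. All these calls were below 0 on all 3 scales. Next along the pathways, mccc-1, a methylcrotonyl-CoA carboxylase subunit of the leucine branch, changed by -0.34 ± 0.03, and the acyl-CoA dehydrogenase gene acdh-9 had 70.3, 76.0, 66.0 and 67.4 FPKM in bcat-1(hh58) animals, against 134, 120.3, 126 and 136 FPKM in wild-type animals. The acdh-9 groups did not overlap (log2 fold change -0.88 ± 0.08 (SE), limma adjusted p = 1.73e-07). The thiolase gene kat-1 and B0250.5, a hydroxyisobutyrate dehydrogenase homologue of the valine branch, fell by 0.84 and 0.67 on the log2 scale. One other member besides bcat-1 was called higher, B0272.3, at 0.14 ± 0.04, and its sign turned after median-of-ratios scaling (-0.04).

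Each of the 5 propionate shunt genes was lower in bcat-1(hh58), and most of them fell more than the upstream enzymes named above. The list of branched-chain amino acid breakdown overlaps this one, since hach-1, the largest fall there (-1.82), belongs to both. The 2 lists are therefore no separate measures. The median log2 fold change of the list was -1.45 on the deposited scale, -1.63 with median-of-ratios and -1.37 with quantile normalization. The transcript of acdh-1 had 572, 561, 335 and 475 FPKM in bcat-1(hh58) animals, against 1314, 1358, 1196 and 1324 FPKM in wild-type animals (log2 fold change -1.45 ± 0.20 (SE), limma adjusted p = 1.69e-05). ECH-6 is the enoyl-CoA hydratase of the shunt, and ech-6 had 315, 316, 264 and 298 FPKM in bcat-1(hh58) animals, against 737, 767, 633 and 773 FPKM in wild-type animals (log2 fold change -1.28 ± 0.11 (SE), limma adjusted p = 1.41e-07). HACH-1 hydrolyses the hydroxyacyl-CoA, and its transcript had 105, 108, 90.2 and 97.5 FPKM in bcat-1(hh58) animals, against 384, 379.9, 280.3 and 383 FPKM in wild-type animals (log2 fold change -1.82 ± 0.11 (SE), limma adjusted p = 4.17e-09). No mutant value of these genes reached a wild-type value, and for acdh-1, ech-6 and hach-1 the lowest value of each strain was that of replicate 3. The hydroxyacid dehydrogenase gene hphd-1 had 131, 121, 85.4 and 116 FPKM in bcat-1(hh58) animals, against 429.5, 428, 351 and 429 FPKM in wild-type animals, again with the lowest value of each strain in replicate 3 (log2 fold change -1.86 ± 0.15 (SE), limma adjusted p = 5.97e-08). The last gene, alh-8, which encodes a semialdehyde dehydrogenase, changed less (-0.52 ± 0.07). Averaged over the 5 genes, log2 values relative to the wild-type mean were -1.24, -1.26, -1.66 and -1.39 in bcat-1(hh58) replicates 1 to 4, against 0.05, 0.08, -0.20 and 0.07 in wild-type replicates 1 to 4, so the mutant samples lay well apart from wild-type in each replicate.

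In the canonical propionate pathway the calls went both ways. Of its genes 2 of 7 tested were higher and 1 lower, and after median-of-ratios scaling the same list had 0 higher and 4 lower. Methylmalonyl-CoA mutase, mmcm-1, the vitamin B12-dependent enzyme, changed by -0.12 ± 0.05, a call that was lost when any single sample other than bcat-1(hh58) replicates 2 and 4 was left out. Among genes of the methionine cycle and phosphatidylcholine synthesis, 4 of 12 tested were higher and 3 lower, and sams-3, an S-adenosylmethionine synthetase gene, fell by 0.44 on the log2 scale. The nuclear hormone receptor gene nhr-114 had 70.0, 70.7, 51.1 and 76.4 FPKM in bcat-1(hh58) animals, against 141.9, 158, 111 and 148 FPKM in wild-type animals. All 4 mutant values were below the wild-type values (log2 fold change -1.06 ± 0.22 (SE), limma adjusted p = 0.000825).

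The largest falls of single genes lay outside these pathways. acdh-2, which encodes an acyl-CoA dehydrogenase related to ACDH-1, had 0.192, 0.466, 0.221 and 0.226 FPKM in bcat-1(hh58) animals, against 65.7, 53.3, 31.6 and 52.6 FPKM in wild-type animals (log2 fold change -6.01 ± 0.20 (SE), limma adjusted p = 1.24e-12). The lowest wild-type value was 67.7 times the highest mutant value; acdh-2 overlaps ins-13 on the same strand, and the fitted value understates the fall because the mutant values lie below the pseudocount. Y49G5A.1 had 2.14, 0.712, 1.63 and 2.33 FPKM in bcat-1(hh58) animals, against 32.98, 52.02, 39.3 and 45.9 FPKM in wild-type animals (-4.34 ± 0.23), and C09B8.4 had 0.444, 0.624, 0.289 and 0.521 FPKM in bcat-1(hh58) animals, against 24.7, 20.9, 8.404 and 18.8 FPKM in wild-type animals (-4.18 ± 0.30). T22B7.7 had 13.1, 13.3, 7.49 and 9.201 FPKM in bcat-1(hh58) animals, against 84.4, 247, 149 and 82.0 FPKM in wild-type animals (-3.53 ± 0.43), with wild-type values that differed among themselves more than those of the other genes. Mutant and wild-type values did not overlap for any of these 4 genes.

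A short-chain dehydrogenase gene, dhs-25, combined a large fall with little spread in the mutant. It had 32.1, 31.4, 34.8 and 32.7 FPKM in bcat-1(hh58) animals, against 367, 362, 237 and 321 FPKM in wild-type animals (log2 fold change -3.26 ± 0.12 (SE), limma adjusted p = 8.22e-12). Its family member dhs-26 fell by 2.97 on the log2 scale, while of the 42 tested aldehyde and short-chain dehydrogenase genes 20 were higher and 7 lower (10 higher and 11 lower after quantile normalization). folt-2, a member of the folate transporter family, had 65.8, 62.9, 42.03 and 59.2 FPKM in bcat-1(hh58) animals, against 399, 357, 313 and 421 FPKM in wild-type animals (log2 fold change -2.70 ± 0.13 (SE), limma adjusted p = 2.92e-10). ugt-53, a UDP-glucuronosyltransferase gene, had 1.03, 1.67, 0.819 and 1.04 FPKM in bcat-1(hh58) animals, against 10.7, 12.3, 8.35 and 11.3 FPKM in wild-type animals (-2.78 ± 0.16). Both groups of values stayed apart for each of these genes. Y69A2AR.12, Y69A2AR.25 and drd-10 complete the 12 largest falls named here together with col-135, a cuticle collagen gene, and changed by -3.39 ± 0.18, -3.08 ± 0.17 and -2.39 ± 0.32.

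**Figure D2:**
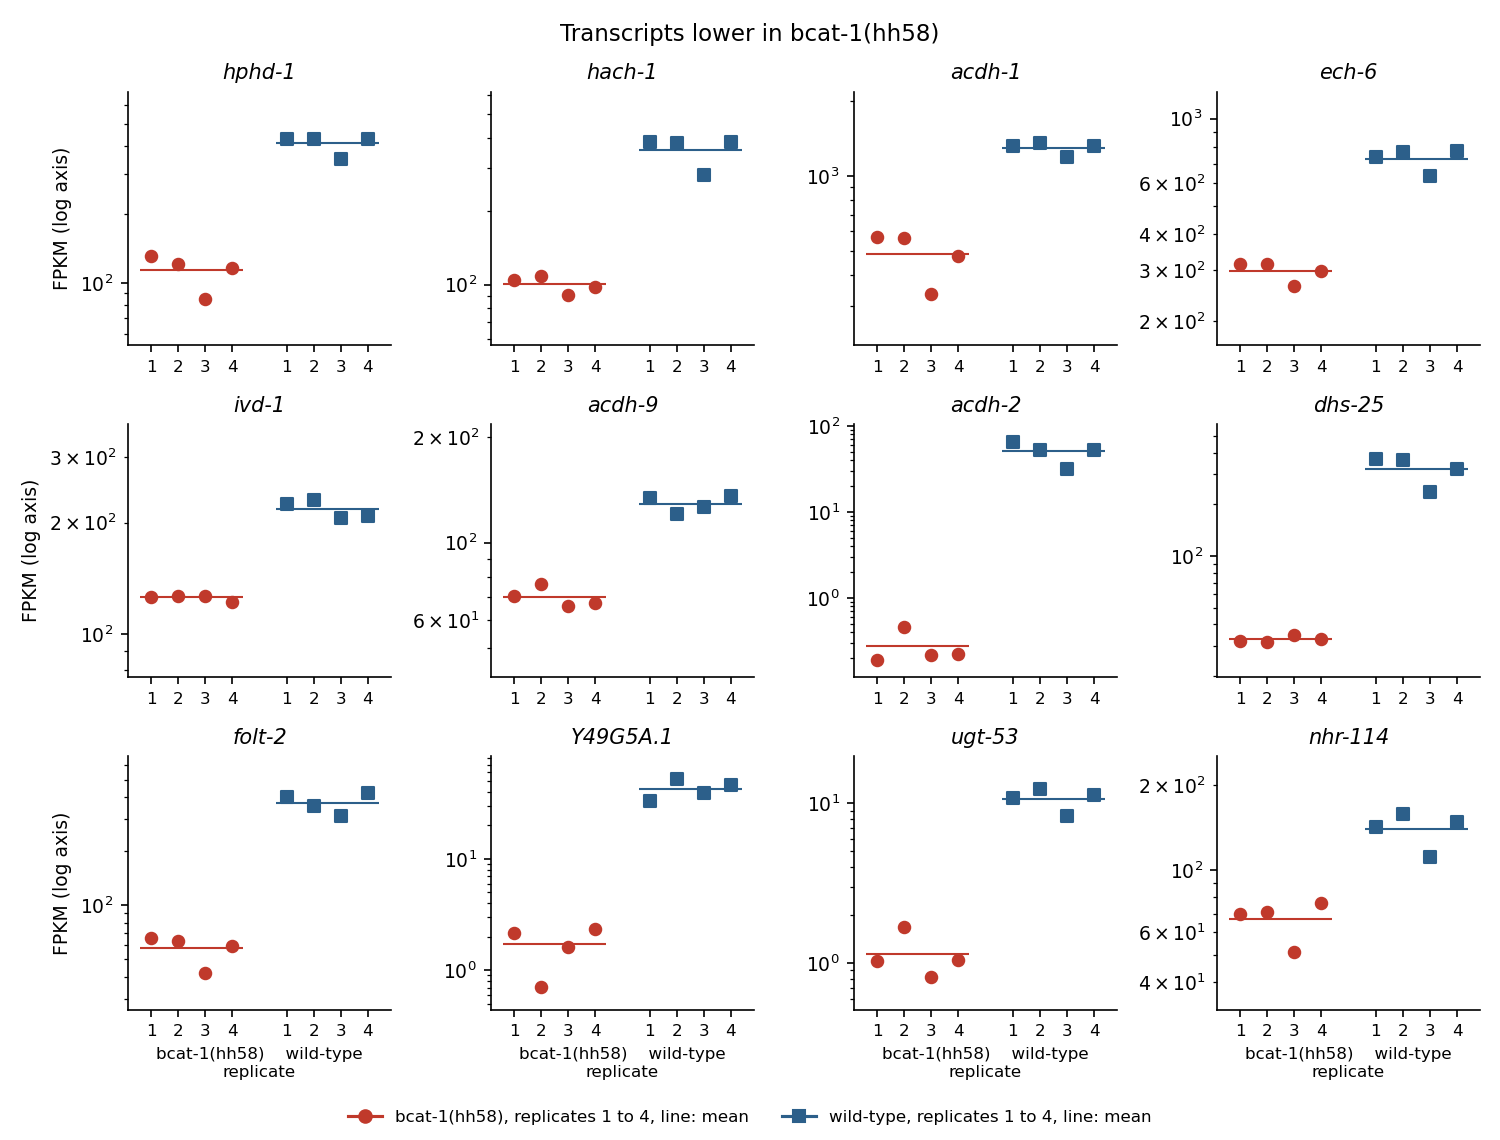
FPKM on a log axis of 12 genes that were lower in bcat-1(hh58), with each point 1 sample (replicates 1 to 4 of bcat-1(hh58) at the left, of wild-type at the right) and lines at the means. In every panel all 4 mutant points lie below all 4 wild-type points, and dhs-25 and ivd-1 show the narrowest spread in the mutant.

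Genes of mitochondria, glycolysis and translation were lower in bcat-1(hh58) by small amounts, except that cytosolic ribosomal proteins had as many higher as lower calls after quantile normalization. The respiratory chain, which transfers electrons to oxygen and makes ATP, had 52 of 62 nuclear-encoded genes lower and none higher, with a median log2 fold change of -0.21. After quantile normalization 0 higher and 48 lower were called and the median was -0.19, close to the -0.14 of all tested genes on that scale. Complex I genes nuo-5 and gas-1 changed by -0.45 ± 0.04 and -0.35 ± 0.07, and atp-2, the beta subunit of ATP synthase, by -0.32 ± 0.03. Averaged over the list, values relative to the wild-type mean were -0.18, -0.29, -0.15 and -0.23 in bcat-1(hh58) replicates 1 to 4, against -0.03, 0.03, 0.03 and -0.02 in wild-type replicates 1 to 4. All 4 mutant averages lay below those of wild-type, by amounts well under 2-fold.

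Mitochondrial ribosomal proteins had the same one-sided calls, 47 of 65 lower and none higher (0 higher and 57 lower after quantile normalization), with mrps-23 at -0.51 ± 0.05. Of pyruvate dehydrogenase and tricarboxylic acid cycle genes, 3 of 27 tested were higher and 16 lower. Malate dehydrogenase mdh-2, pyruvate dehydrogenase subunit pdhb-1 and isocitrate dehydrogenase idh-1 fell by 0.43, 0.43 and 0.40 on the log2 scale, whereas ogdh-2, an oxoglutarate dehydrogenase gene, was higher (0.34 ± 0.05). Of the glycolysis genes 2 of 19 tested were higher and 12 lower, including gpd-3, a glyceraldehyde-3-phosphate dehydrogenase gene (-0.44 ± 0.08). The mitochondrial chaperone genes hsp-60 and hsp-6 changed by -0.60 ± 0.04 and -0.19 ± 0.03, and the prohibitin gene phb-1 by -0.33 ± 0.03. In their list, the mitochondrial unfolded protein response, 3 of 19 tested were higher and 9 lower, with a median of -0.10. Its members ran from -0.60 to 2.75, so the largest change in this list was a rise. The list mean relative to the wild-type mean was 0.06, 0.05, 0.11 and 0.10 in bcat-1(hh58) replicates 1 to 4, against 0.03, -0.03, 0.01 and -0.01 in wild-type replicates 1 to 4.

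Of the aminoacyl-tRNA synthetase genes, which charge tRNAs for translation, 2 of 31 tested were higher and 17 lower (1 higher and 26 lower after quantile normalization), with lysyl-tRNA synthetase kars-1 at -0.36 ± 0.03 and seryl-tRNA synthetase sars-1 among the higher ones at 0.26 ± 0.06, a call that was lost with median-of-ratios scaling. Of the cytosolic ribosomal protein genes 0 of 79 tested were higher and 32 lower, among them rpl-25.2 (-0.34 ± 0.04) and rpl-11.1 (-0.30 ± 0.03). Median-of-ratios scaling gave 0 higher and 76 lower and a median of -0.32. Quantile normalization gave 8 higher and 8 lower and a median of 0.01, so the list had no direction on that scale. Leaving out 1 sample moved the lower ribosomal calls to 16 without bcat-1(hh58) replicate 2 (with 2 higher), 45 without bcat-1(hh58) replicate 3, 16 without bcat-1(hh58) replicate 4, 17 without wild-type replicate 2 and 14 without wild-type replicate 3. The proteasome degrades ubiquitin-tagged proteins. In its regulatory 19S particle 0 of 19 tested were higher and 8 lower, and in its catalytic 20S core 0 of 14 tested were higher and 10 lower, with rpn-5 at -0.21 ± 0.05 and pas-4 at -0.24 ± 0.04. The 8 lower calls of the 19S list became 4, 13 and 3 without bcat-1(hh58) replicates 1, 2 and 3, and 5 without wild-type replicate 1 or 3. On the deposited scale the medians of both particles, -0.12 and -0.13, lay below the all-gene median of 0.17. After quantile normalization they were -0.16 and -0.15, close to the all-gene median of -0.14 there, with 10 and 8 lower calls. Median-of-ratios scaling gave 18 and 14 lower calls and medians of -0.30 and -0.31, against an all-gene median of 0.02.

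**Figure D3:**
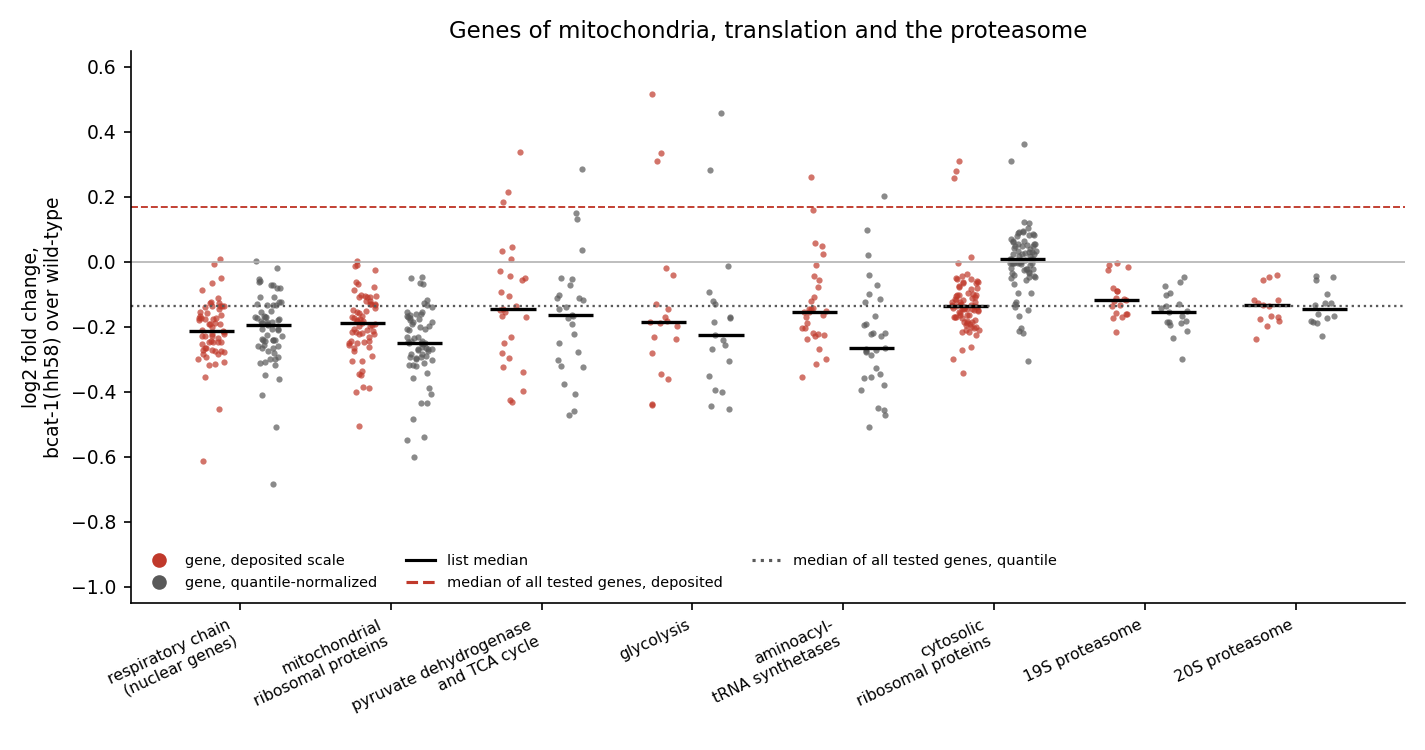
Log2 fold change of bcat-1(hh58) over wild-type for each gene (point) of 8 lists on the deposited scale (red) and after quantile normalization (grey), with list medians (bars) and the medians of all tested genes (horizontal lines). On the deposited scale nearly all genes lie below the all-gene median of 0.17, while on the quantile scale the lists lie around or below -0.14 and the cytosolic ribosomal proteins around 0.

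Genes of other amino acid pathways included larger rises. asns-2, an asparagine synthetase gene, had 343, 167, 301 and 251.1 FPKM in bcat-1(hh58) animals, against 20.7, 21.7, 17.3 and 14.5 FPKM in wild-type animals. The lowest mutant value was 7.69 times the highest wild-type value (log2 fold change 3.77 ± 0.27 (SE), limma adjusted p = 1.58e-08). Its paralogue asns-1 rose by 2.096 ± 0.27, the proline synthesis genes alh-13 and pycr-1 by 1.69 ± 0.17 and 1.61 ± 0.14, and phdh-1, the phosphoglycerate dehydrogenase gene of serine synthesis, by 0.99 ± 0.12. In the list of amino acid stress genes that holds the asparagine synthetases, 7 of 20 tested were higher and 3 lower, with a median of 0.08, below that of all tested genes.

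Several genes of tyrosine breakdown were higher. tatn-1, the tyrosine aminotransferase gene, had 118, 106, 122 and 129 FPKM in bcat-1(hh58) animals, against 50.9, 61.4, 56.4 and 57.9 FPKM in wild-type animals, without overlap (log2 fold change 1.06 ± 0.11 (SE), limma adjusted p = 1.15e-06). Downstream, hpd-1 (4-hydroxyphenylpyruvate dioxygenase), hgo-1 (homogentisate oxidase) and gst-42 (maleylacetoacetate isomerase) rose by 0.97 ± 0.09, 0.66 ± 0.05 and 0.82 ± 0.08. Over tyrosine and tryptophan breakdown together 8 of 15 tested were higher and 1 lower, against 5 higher and 3 lower after quantile normalization. In cysteine and hydrogen sulfide metabolism 7 of 19 tested were higher and 3 lower, against 3 higher and 5 lower after quantile normalization, and 11 were higher without bcat-1(hh58) replicate 2. cth-1 (cystathionine gamma-lyase) and cdo-1 (cysteine dioxygenase) rose by 1.00 ± 0.17 and 0.83 ± 0.09, and sqrd-1, a sulfide quinone oxidoreductase gene, and rhy-1, a regulator of the hypoxia factor HIF-1, fell by 1.04 and 0.65 on the log2 scale.

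In folate and nucleotide synthesis 8 of 21 tested were higher and 1 lower. dao-3, a methylenetetrahydrofolate dehydrogenase gene, and atic-1, of purine synthesis, rose by 0.96 ± 0.08 and 0.92 ± 0.09, pyr-1, of pyrimidine synthesis, rose by 0.73 ± 0.07, and the CTP synthase gene ctps-1 changed by -0.38 ± 0.04. Of the amino acid and peptide transporter genes 13 of 31 tested were higher and 1 lower on the deposited scale, with aat-1 and slc-36.2 at 0.81 ± 0.14 and 0.81 ± 0.13, and with 1 higher and 9 lower after quantile normalization, where 30% of all tested genes were lower. Among the genes of the TOR kinase and amino acid sensing, 5 of 21 tested were higher and 0 lower (3 higher and 6 lower after quantile normalization). The called ones were pha-4 (a FOXA transcription factor, 1.09 ± 0.13), sesn-1 (sestrin, 0.51 ± 0.12), aak-2 (a catalytic subunit of AMP kinase, 0.44 ± 0.05), hlh-30 (a transcription factor of autophagy and lysosome genes, 0.44 ± 0.07) and aak-1 (the other catalytic subunit of AMP kinase, 0.18 ± 0.06). Calls lost after quantile normalization included those of sesn-1 and aat-1, and sesn-1 was not the only one of the 5 sensing genes to lose its call there. Median-of-ratios scaling gave 4 higher and 7 lower sensing genes.

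Among lipid genes, lipases had mostly higher calls. Of the lipases 13 of 20 tested were higher and 1 lower (8 higher and 2 lower after quantile normalization), with a median of 0.85. lipl-1, whose product is a lysosomal lipase induced by fasting, had 35.4, 44.2, 19.9 and 23.9 FPKM in bcat-1(hh58) animals, against 0.594, 1.39, 2.08 and 0.786 FPKM in wild-type animals. The lowest mutant value was 9.56 times the highest wild-type value (log2 fold change 4.21 ± 0.33 (SE), limma adjusted p = 4.75e-08). The lipase-related gene lips-9 rose by 2.98 ± 0.33, the carnitine palmitoyltransferase gene cpt-4 by 2.46 ± 0.34, the acyl-CoA synthetase gene acs-20 by 1.72 ± 0.16 and the peroxisomal acyl-CoA oxidase gene acox-1.5 by 1.30 ± 0.17. In the list of fatty acid activation and beta-oxidation as a whole 23 of 49 tested were higher and 6 lower, which evened out to 16 higher and 13 lower after median-of-ratios scaling. lbp-7, a lipid-binding protein gene, and icl-1, the glyoxylate cycle enzyme gene, rose by 1.29 ± 0.16 and 1.08 ± 0.18.

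Of 20 tested fatty acid desaturase and elongase genes 3 were higher, 5 lower and 12 not called, with a median log2 fold change of 0.03. Without bcat-1(hh58) replicate 2 there were 6 higher and 4 lower, and without wild-type replicate 1 or 2 there were 3 lower. fat-7, a stearoyl-CoA desaturase gene, had 32.8, 34.6, 22.96 and 23.5 FPKM in bcat-1(hh58) animals, against 219.7, 278, 41.4 and 57.1 FPKM in wild-type animals. The mutant values lay below all wild-type values, but wild-type replicates 3 and 4 were far below replicates 1 and 2 (log2 fold change -1.95 ± 0.65 (SE), limma adjusted p = 0.0206). The call was lost without wild-type replicate 1 (-1.62) and without wild-type replicate 2 (-1.51), with adjusted p of up to 0.0787. The elongase gene elo-2 changed by -0.58 ± 0.08.

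Genes of the cuticle, the collagen-rich coat that larvae replace at each molt, held many of the largest rises. Of the 275 genes with a rise of 8-fold or more, 83 belonged to the cuticle, matrix and molting lists. Of 14 tested body-shape collagens, in which mutations make worms dumpy, rolled or blistered, 13 were higher and none lower, with a median log2 fold change of 4.87. Each of the 6 furrow collagens was higher (median 3.70). Of the larger col family 80 of 120 tested were higher and 21 lower (median 2.06), and of molting factors and apical matrix proteins 22 of 25 tested were higher and 1 lower (median 2.27). After quantile normalization these medians were 4.58, 3.28, 1.76 and 1.68. Without wild-type replicate 1, the col calls were 79 higher and 20 lower and the molting calls 22 higher and 0 lower. These lists also stood above wild-type in ivd-1(tm6784), so their rise was not particular to bcat-1(hh58). Relative to the wild-type mean, body-shape collagens averaged 3.305, 3.97, 2.82 and 3.43 in ivd-1(tm6784) replicates 1 to 4. Furrow collagens averaged 2.11, 3.08, 1.28 and 1.86 in these samples, and the col family 1.78, 2.27, 1.64 and 1.99.

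Among single collagens, col-88 had 228, 137, 446 and 189 FPKM in bcat-1(hh58) animals, against 31.1, 2.23, 1.15 and 1.04 FPKM in wild-type animals (log2 fold change 5.88 ± 0.79 (SE), limma adjusted p = 1.04e-05). Wild-type replicate 1 stood far above the other wild-type samples, and the lowest mutant value was still 4.398 times as high. col-91 and col-175 changed by 5.64 ± 0.78 and 5.601 ± 0.68 with wild-type replicate 1 again the highest wild-type sample. Of the furrow collagens dpy-7, dpy-3 and dpy-10 rose by 3.88 ± 0.52, 4.63 ± 0.53 and 2.13 ± 0.21, and of the body-shape collagens rol-6, sqt-3 and bli-1 by 4.79 ± 0.60, 4.21 ± 0.46 and 4.47 ± 0.54. dpy-10 overlaps T14B4.19 on the same strand. The falls in this family included col-135, with 6.97, 12.6, 8.53 and 12.4 FPKM in bcat-1(hh58) animals, against 46.7, 58.7, 61.2 and 65.3 FPKM in wild-type animals (log2 fold change -2.49 ± 0.19 (SE), limma adjusted p = 5.06e-08), col-103 (-0.68 ± 0.12) and col-142 (-0.82 ± 0.28). Mutant and wild-type values did not overlap for these 3 genes. The call of col-142 was lost without bcat-1(hh58) replicate 2, wild-type replicate 2 or wild-type replicate 3 (-0.65 to -0.78).

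Molting and matrix genes followed. mlt-10 and mlt-8, named for their molting phenotypes, changed by 3.17 ± 0.31 and 4.19 ± 0.43, the cuticlin gene cut-2 by 4.79 ± 0.62 and noah-1, an apical matrix protein gene, by 2.76 ± 0.28; mlt-10 overlaps lips-7 on the same strand. nhr-23, a nuclear hormone receptor required for molting, was the member called lower, at -0.17 ± 0.06 with overlapping groups and a limma adjusted p of 0.0435, and it was not called without bcat-1(hh58) replicate 1 or 3 or wild-type replicate 1 or 4 (-0.13 to -0.14). Of the hedgehog-related genes, a nematode-specific family of secreted proteins, 27 of 34 tested were higher and 1 lower, led by grl-16 (5.43 ± 0.68). Of the patched-related genes 18 of 24 tested were higher and 0 lower, with ptr-4 at 3.17 ± 0.35, and of the astacin metallopeptidases 28 of 33 tested were higher and 1 lower, with nas-27 at 3.10 ± 0.35. After quantile normalization the calls of these 3 lists were 23 higher and 2 lower, 13 higher and 2 lower and 19 higher and 3 lower. Of the collagen processing enzymes 10 of 12 tested were higher and 2 lower.

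Among genes that met the conditions for named genes (given with the processing), several of the 12 largest rises were uncharacterised genes with the same profile. Y48G8AL.12 had 450.1, 271.9, 857 and 388 FPKM in bcat-1(hh58) animals, against 37.1, 2.62, 1.91 and 2.51 FPKM in wild-type animals (log2 fold change 6.38 ± 0.74 (SE), limma adjusted p = 2.56e-06), with wild-type replicate 1 above the other wild-type samples. R12E2.7, C02E7.7, Y47D7A.15, R12E2.14, R12E2.15 and F41F3.3 changed by 6.04 ± 0.82, 5.99 ± 0.77, 5.83 ± 0.76, 5.75 ± 0.80, 5.67 ± 0.68 and 5.598 ± 0.72. Wild-type replicate 1 was the highest wild-type sample for 227 of the 275 genes with a rise of 8-fold or more, bcat-1(hh58) replicate 3 the highest mutant for 233 and bcat-1(hh58) replicate 2 the lowest mutant for 264. The 5 larval molt markers (mlt-10, nas-37, noah-1, dpy-7 and bli-1) were all higher, with summed levels of 56.6 to 160 FPKM in bcat-1(hh58), against 18.96 to 22.1 FPKM in wild-type, and the adult-specific collagen col-19 was lower, at 1675 to 1934 FPKM in bcat-1(hh58), against 2139 to 2400 FPKM in wild-type (limma adjusted p = 0.0468). The call of col-19 was lost when any single sample was left out (-0.28 to -0.35). The 5 larval markers mlt-10, noah-1, nas-37, dpy-7 and bli-1 are themselves members of the molting, furrow and body-shape lists, so they are no separate measure of those lists. The part of larval stage in the rises was not tested.

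The bcat-1(hh58) replicates varied more than those of any other strain. The SD of log2 values over 4 replicates had a median of 0.196 in bcat-1(hh58). It was 0.138 in ivd-1(tm6784), 0.152 in hecd-1(tm2371), 0.167 in the double mutant and 0.127 in wild-type. For 11835 genes (74.2%) bcat-1(hh58) had a larger SD than wild-type. Replicates 2 and 3 carried most of the variation, with 37.4% and 31.8% of the squared deviations, against 16.3% and 14.5% for replicates 1 and 4. The median absolute log2 difference was 0.354 between replicates 2 and 3 and 0.141 between replicates 1 and 4, while wild-type pairs lay between 0.114 and 0.144. Replicates 2 and 3 thus lay on opposite sides of replicates 1 and 4. Without replicate 2, whose omission lowered the spread most, the median SD was 0.146.

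These differences between replicates had a gene content. Body-shape collagens, averaged relative to the wild-type mean, stood at 4.45, 3.55, 4.97 and 4.27 in bcat-1(hh58) replicates 1 to 4, against 1.07, 0.14, -0.38 and -0.83 in wild-type replicates 1 to 4. Furrow collagens stood at 3.77, 2.53, 4.34 and 3.64 in bcat-1(hh58) replicates 1 to 4, against 0.41, -0.13, -0.04 and -0.24 in wild-type replicates 1 to 4, and the col family at 2.31, 1.62, 2.65 and 2.08 in bcat-1(hh58) replicates 1 to 4, against 0.74, -0.04, -0.24 and -0.46 in wild-type replicates 1 to 4. In each of these lists replicate 3 was the highest and replicate 2 the lowest mutant, and replicate 2 was still above the highest wild-type sample. Sperm genes had the same order in the mutant, at -0.12, -1.16, 0.31 and -0.38 in bcat-1(hh58) replicates 1 to 4, against -0.17, 0.38, 0.08 and -0.29 in wild-type replicates 1 to 4, and here mutant replicates 1 and 3 lay within the wild-type range. Early embryonic genes had the reverse order, at 0.53, 0.85, 0.38 and 0.62 in bcat-1(hh58) replicates 1 to 4, against 0.23, -0.28, -0.12 and 0.18 in wild-type replicates 1 to 4, with the highest value in replicate 2. Vitellogenins, the yolk proteins, were also highest in replicate 2 and lowest in replicate 3, at -0.30, 0.16, -0.76 and -0.24 in bcat-1(hh58) replicates 1 to 4, against -0.11, 0.02, 0.07 and 0.02 in wild-type replicates 1 to 4.

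Among expressed genes without zeros, the widest spread in the mutant was found for the following. dod-21 had 1.13, 0.815, 30.9 and 7.87 FPKM in bcat-1(hh58) animals, against 0, 0, 0.0996 and 0 FPKM in wild-type animals, and cld-1 had 1.83, 0.941, 29.2 and 6.77 FPKM in bcat-1(hh58) animals, against 0, 0, 0.197 and 0 FPKM in wild-type animals. In both, replicate 3 was the highest and all 4 mutant samples were above wild-type, where the genes were listed at or near 0. C50F7.5 had 7.95, 2.38, 24.3 and 9.38 FPKM in bcat-1(hh58) replicates 1 to 4, C01G10.5 9.14, 1.72, 26.2 and 9.93 FPKM, col-54 7.36, 1.17, 10.7 and 2.31 FPKM and B0024.4 41.4, 11.08, 89.9 and 46.6 FPKM, again all highest in replicate 3 and lowest in replicate 2. An exception was pud-2.2 (WBGene00017500, 1 of 2 gene IDs with this symbol), with 7.30, 7.63, 0.528 and 9.29 FPKM in bcat-1(hh58) replicates 1 to 4, which was lowest in replicate 3.

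**Figure D4:**
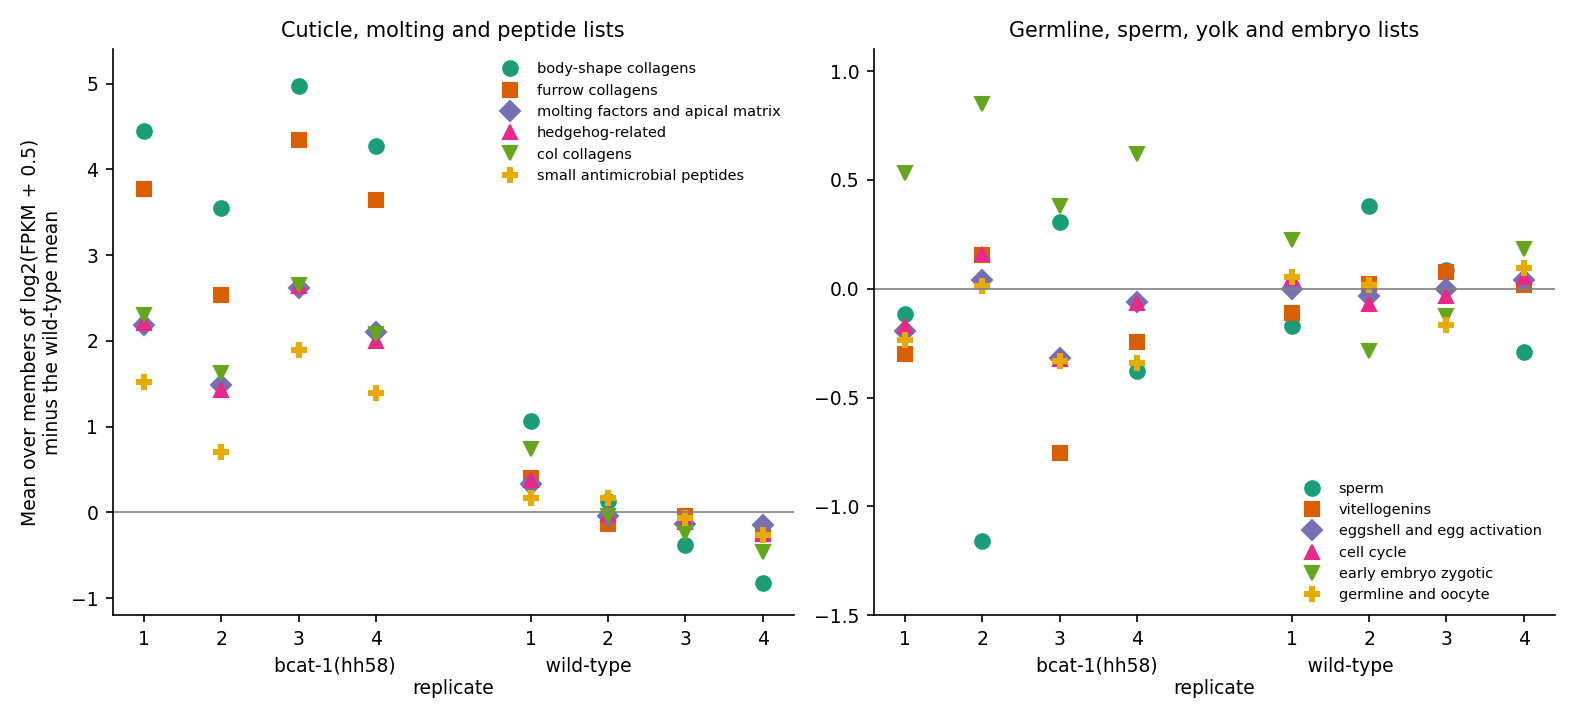
Mean over list members of log2(FPKM + 0.5) minus the wild-type mean, for each replicate of bcat-1(hh58) (left) and wild-type (right). Among the mutant samples the cuticle and peptide lists are highest in replicate 3 and lowest in replicate 2 (body-shape collagens 4.97 and 3.55), as are the sperm genes, and early embryonic genes and vitellogenins are highest in replicate 2 and lowest in replicate 3.

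The 12 largest rises that met the conditions for named genes included 1 gene of poly(ADP-ribose) turnover and 1 infection response gene. Of the poly(ADP-ribose) genes as a list 2 of 5 tested were higher and 0 lower. Their median of 0.05 was below the 0.17 of all tested genes. parg-2, a poly(ADP-ribose) glycohydrolase gene (IV:8712408-8715132), had 98.5, 37.7, 93.9 and 69.6 FPKM in bcat-1(hh58) animals, against 0.554, 0.162, 0.447 and 0.171 FPKM in wild-type animals. The groups were far apart although mutant replicate 2 was well below the others (log2 fold change 6.44 ± 0.29 (SE), limma adjusted p = 1.55e-10). irg-5, an infection response gene (V:13737010-13738474), had 399.7, 219.7, 347 and 345 FPKM in bcat-1(hh58) animals, against 4.38, 8.07, 5.97 and 6.54 FPKM in wild-type animals (log2 fold change 5.601 ± 0.30 (SE), limma adjusted p = 9.32e-10). Of the pals and irg genes 11 of 22 tested were higher and 0 lower (10 higher and 8 lower after quantile normalization), with irg-1 and irg-2 at 4.29 ± 0.39 and 3.44 ± 0.23.

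Of the small antimicrobial peptide genes 26 of 47 tested were higher and 0 lower, with a median of 1.36 (0.96 after quantile normalization, with 24 higher and 0 lower). The epidermal peptide genes nlp-34, nlp-30, cnc-4 and nlp-29 changed by 4.21 ± 0.42, 3.86 ± 0.36, 3.00 ± 0.35 and 2.23 ± 0.22. The mean over this list was highest in mutant replicate 3 and lowest in replicate 2, at 1.52, 0.71, 1.89 and 1.39 in bcat-1(hh58) replicates 1 to 4, against 0.16, 0.17, -0.07 and -0.26 in wild-type replicates 1 to 4. In ivd-1(tm6784) replicates 1 to 4 it was 0.99, 1.165, 0.97 and 1.045, so the rise of this list was not particular to bcat-1(hh58). Lysozymes, which cleave bacterial cell walls, and saposin-like proteins had 22 of 34 genes higher and 1 lower (19 higher and 2 lower after quantile normalization). The lysozyme gene lys-2 had 314, 249, 451 and 338 FPKM in bcat-1(hh58) animals, against 48.4, 50.9, 102.6 and 56.0 FPKM in wild-type animals, with replicate 3 the highest in both strains and no overlap (log2 fold change 2.42 ± 0.21 (SE), limma adjusted p = 1.29e-07), and the saposin-like gene spp-13 changed by 3.52 ± 0.47. C-type lectins split, with 50 of 116 higher and 13 lower on the deposited scale and 25 higher and 34 lower after quantile normalization, where 30% of all tested genes were lower. clec-67 and clec-10 changed by 2.57 ± 0.33 and -2.01 ± 0.12.

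Detoxification families had mostly higher calls on the deposited scale and after median-of-ratios scaling, and nearly as many lower as higher calls after quantile normalization. Cytochrome P450 genes, whose products oxidise foreign compounds and lipids, had 30 of 54 higher and 4 lower, against 11 higher and 12 lower after quantile normalization. Glucuronosyltransferase genes had 30 higher and 3 lower (16 higher and 13 lower after quantile normalization), and glutathione S-transferase genes had 26 higher and 4 lower (16 higher and 15 lower). Median-of-ratios scaling gave 25 higher and 5 lower, 24 higher and 5 lower, and 21 higher and 5 lower for these 3 families. Single members changed far more than these shifts. cyp-14A5 had 161, 62.3, 128 and 111 FPKM in bcat-1(hh58) animals, against 5.74, 5.66, 7.83 and 4.72 FPKM in wild-type animals (log2 fold change 4.102 ± 0.25 (SE), limma adjusted p = 4.17e-09). ugt-31 had 33.97, 15.9, 32.03 and 26.6 FPKM in bcat-1(hh58) animals, against 1.90, 1.98, 2.55 and 1.97 FPKM in wild-type animals (3.36 ± 0.23), and gst-38 had 34.7, 22.1, 63.04 and 33.9 FPKM in bcat-1(hh58) animals, against 2.36, 2.54, 4.41 and 2.19 FPKM in wild-type animals (3.47 ± 0.30). Groups did not overlap for these 3 genes, and wild-type replicate 3 was the highest wild-type sample in each. cyp-37B1, ugt-29 and gst-20 also rose (2.60 ± 0.29, 2.203 ± 0.25 and 1.94 ± 0.16), while ugt-63, gst-30 and the short-chain dehydrogenase gene dhs-14 fell by 1.504, 1.05 and 1.08 on the log2 scale. Of 180 tested nuclear hormone receptor genes 57.8% were higher and 3 genes lower, led by nhr-99 (1.74 ± 0.17), with 26 higher and 43 lower after quantile normalization. Median-of-ratios scaling gave 85 higher and 8 lower receptor genes.

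mtl-1, a metallothionein gene, had 25.21, 43.3, 13.2 and 17.3 FPKM in bcat-1(hh58) animals, against 2.48, 2.54, 2.09 and 0.806 FPKM in wild-type animals, with the 2 highest mutant values in replicates 2 and 1 (log2 fold change 3.28 ± 0.30 (SE), limma adjusted p = 2.29e-07). Of the metal binding and transport genes 12 of 16 tested were higher and 1 lower (7 higher and 2 lower after quantile normalization). Of the antioxidant genes 10 of 23 tested were higher and 3 lower, and the superoxide dismutase genes sod-3 and sod-4 were higher by 0.78 ± 0.15 and 0.89 ± 0.10, of which sod-3 lost its call after quantile normalization. Of the transthyretin-related genes, a large family of secreted proteins, 37 of 55 tested were higher and 1 lower (29 higher and 4 lower after quantile normalization), with ttr-26 at 1.80 ± 0.21. The intestinal protease genes asp-14, asp-6 and cpr-1 rose by 1.41 ± 0.22, 1.02 ± 0.11 and 1.08 ± 0.24, and cpr-5 fell by 1.596 on the log2 scale.

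**Figure D5:**
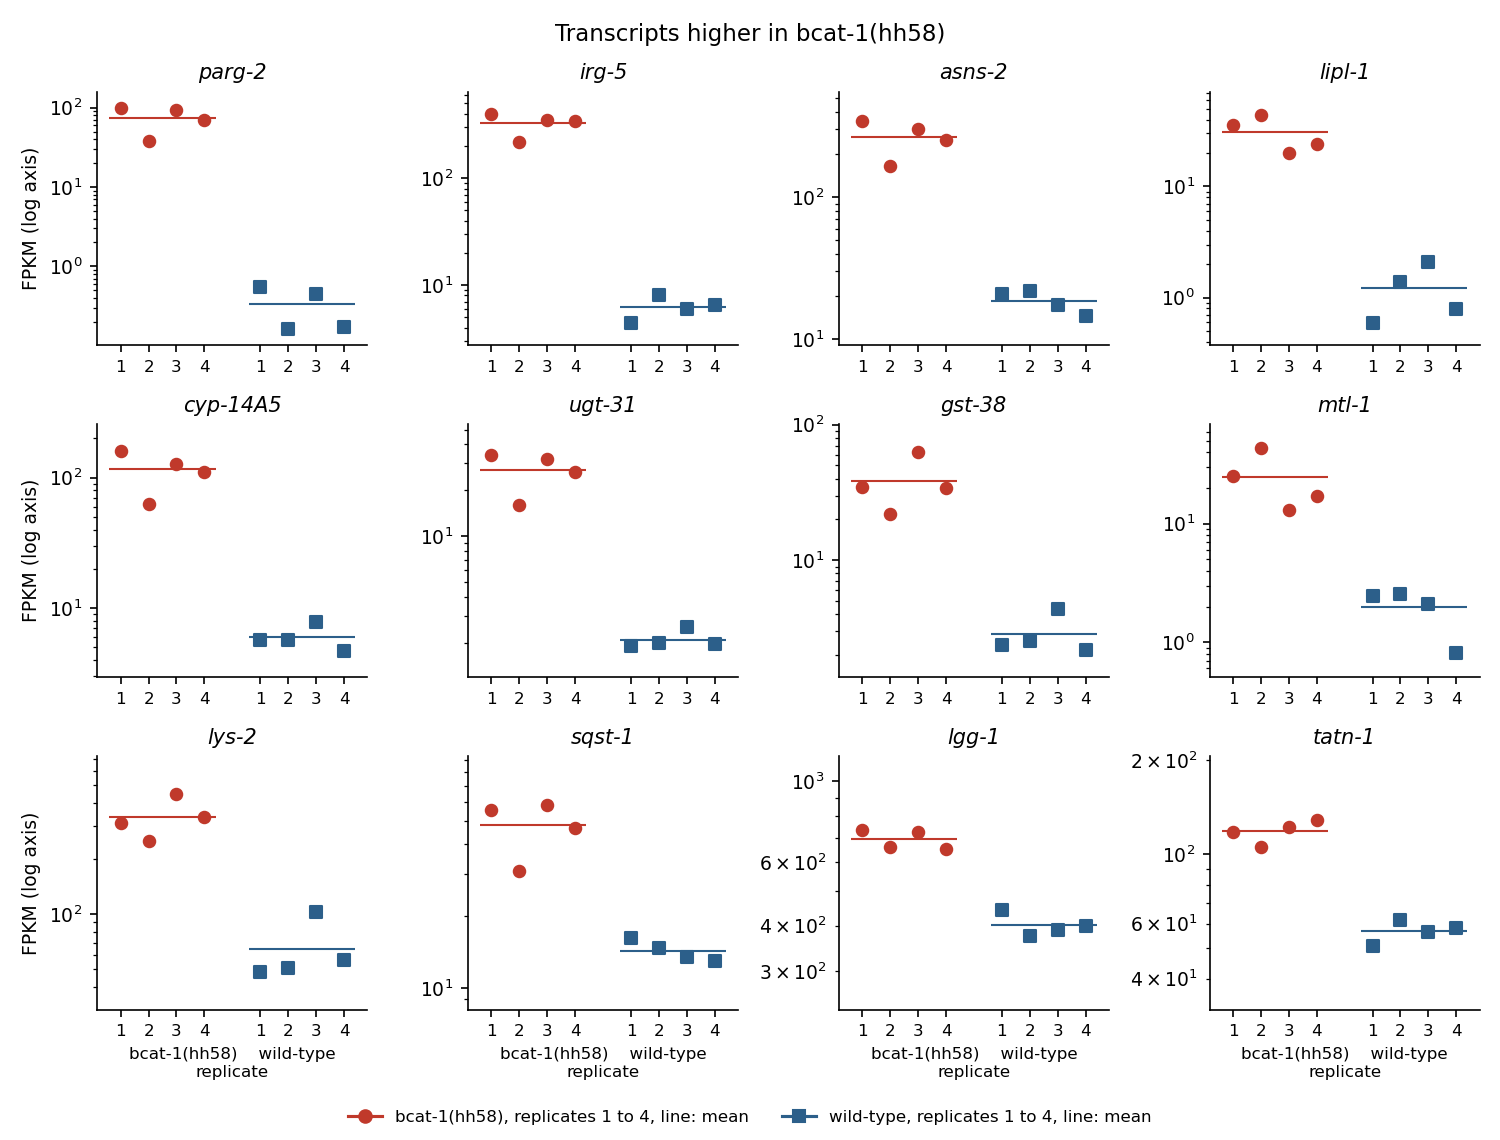
FPKM on a log axis of 12 genes that were higher in bcat-1(hh58), with each point 1 sample (replicates 1 to 4 of bcat-1(hh58) at the left, of wild-type at the right) and lines at the means. All 4 mutant points lie above all 4 wild-type points in every panel, and replicate 2 is the lowest mutant sample in every panel but those of lipl-1, mtl-1 and lgg-1.

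Among protein quality control genes, calls were mostly higher for autophagy and endoplasmic reticulum genes and mostly lower for cytosolic heat shock genes. Of the autophagy genes 12 of 26 tested were higher and 1 lower (5 higher and 2 lower after quantile normalization). lgg-1, which encodes the Atg8 protein of autophagosome membranes, had 733, 659, 723 and 651 FPKM in bcat-1(hh58) animals, against 441, 376, 388 and 399.8 FPKM in wild-type animals (log2 fold change 0.79 ± 0.06 (SE), limma adjusted p = 3.35e-08), and sqst-1, the p62 homologue that binds ubiquitinated cargo, and atg-2 rose by 1.67 ± 0.14 and 0.93 ± 0.09. In lgg-1 the groups were well apart and varied little. Of the endoplasmic reticulum stress genes 17 of 24 tested were higher and 0 lower, with the transcription factor gene xbp-1 at 0.69 ± 0.09 and abu-11 at 4.04 ± 0.59. Median-of-ratios scaling gave 6 higher and 2 lower, and quantile normalization 13 higher and 1 lower. The list mean relative to the wild-type mean was 0.71, 0.48, 0.84 and 0.64 in bcat-1(hh58) replicates 1 to 4, against 0.26, -0.08, -0.10 and -0.08 in wild-type replicates 1 to 4. As in the collagen lists, replicate 3 was the highest mutant, replicate 2 the lowest mutant and replicate 1 the highest wild-type sample. hsp-4, the chaperone gene commonly used to read endoplasmic reticulum stress, was at 216 ± 14.5 FPKM in bcat-1(hh58) and 207 ± 5.66 FPKM in wild-type (SD, n = 4 each), with overlapping groups (limma adjusted p = 0.406). Of the cytosolic heat shock protein genes 2 of 30 tested were higher, 10 lower and 18 not called, and hsp-17 was 1 of the 2 higher ones (1.42 ± 0.18). The list mean relative to the wild-type mean was -0.12, 0.02, -0.13 and 0.55 in bcat-1(hh58) replicates 1 to 4, against 0.08, -0.24, 0.04 and 0.11 in wild-type replicates 1 to 4. Replicate 4 of the mutant thus lay above every wild-type sample, and the other mutant replicates lay within the wild-type range.

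Substrate adaptors of ubiquitin ligases formed large families. Of 228 tested F-box genes, 125 were higher and 4 lower on the deposited scale, led by fbxc-58 (3.36 ± 0.27), against 35 higher and 32 lower after quantile normalization. Median-of-ratios scaling gave 84 higher and 14 lower F-box genes. On the deposited scale the higher F-box calls fell to 83 without bcat-1(hh58) replicate 2 (with 10 lower), 76 without wild-type replicate 2 and 80 without wild-type replicate 3. The SKP1-related genes skr-3 and skr-5 and the cullin gene cul-6 rose by 1.23 ± 0.15, 1.603 ± 0.29 and 1.24 ± 0.19, and the list of SKP1-related and cullin genes had 12 higher and 3 lower (3 higher and 4 lower after quantile normalization, and 7 higher without wild-type replicate 2). The largest log2 fold change of that list was 6.81, in a member that did not meet the conditions for named genes. Of the MATH and BATH adaptors 16 of 50 tested were higher and 6 lower on the deposited scale, with 3 lower without bcat-1(hh58) replicate 1 or wild-type replicate 4, and 3 higher and 21 lower after quantile normalization.

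Markers of every tissue listed were detected, and none was at 0 in all 8 samples. In whole worms fewer cells of a type and less RNA per cell cannot be told apart. Summed muscle markers lay at 569 to 824 FPKM in bcat-1(hh58), against 686 to 744 FPKM in wild-type, and intestinal markers at 579 to 953 FPKM in bcat-1(hh58), against 722 to 826 FPKM in wild-type. Muscle ranges and intestinal ranges overlapped between strains, although 1 of 3 and 3 of 4 markers were called higher. Each of 5 neuronal markers was called higher, with sums of 25.7 to 35.4 FPKM in bcat-1(hh58), against 19.8 to 21.9 FPKM in wild-type. rab-3, a synaptic vesicle protein gene, changed by 0.52 ± 0.13 and lost its call after quantile normalization, at 0.04. In the list of neuronal genes 15 of 21 tested were higher and 0 lower, and 8 higher and 0 lower after median-of-ratios scaling. After quantile normalization that list had 4 higher and 4 lower and a median of -0.11. Of the neuropeptide and insulin-like peptide genes 79 of 131 tested were higher and 1 lower (35 higher and 14 lower after quantile normalization). Of the intestinal genes 7 of 14 tested were higher and 0 lower, and on the quantile scale 7 higher and 0 lower too. ifb-2, an intestinal filament gene, and elt-7, a GATA factor gene, changed by 0.93 ± 0.20 and 0.75 ± 0.10, while elt-2, the main intestinal GATA factor gene, at 0.43 ± 0.13, was not called after quantile normalization (0.04) or median-of-ratios scaling (0.26).

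Germline and oocyte genes were lower in bcat-1(hh58) where they were called. Of the germline and oocyte genes 0 of 35 tested were higher and 18 lower (0 higher and 20 lower after quantile normalization). glh-1 and pgl-3, which encode P granule components, fell by 0.53 and 0.39 on the log2 scale, the argonaute genes hrde-1 and csr-1 by 0.56 and 0.33, and egg-4, of egg activation, by 0.49. csr-1 overlaps frpr-10 on the same strand. The lower calls of the germline and oocyte list numbered 13 to 23 with 1 sample left out. Its mean in bcat-1(hh58) replicate 2 (0.01, log2 relative to the wild-type mean) lay within the wild-type range of -0.17 to 0.10. Summed oocyte and germline markers lay at 1330 to 1793 FPKM in bcat-1(hh58), just below the 1803 to 1924 FPKM of wild-type, and 2 of the 6 markers were called lower. Of the sperm genes 2 of 88 tested were higher and 12 lower, with msp-36, a major sperm protein gene, at -1.17 ± 0.35. The sperm calls were 8 higher and 4 lower without bcat-1(hh58) replicate 2 and 1 higher and 31 lower without bcat-1(hh58) replicate 3, and the lower calls were 6, 5, 4 and 5 without bcat-1(hh58) replicates 1 and 4 and wild-type replicates 2 and 3. Summed sperm markers overlapped, at 1538 to 5244 FPKM in bcat-1(hh58) against 4212 to 6995 FPKM in wild-type. Of the 5 vitellogenins 1, vit-1, was called lower (-0.72 ± 0.12), and their summed level overlapped between strains, at 5037 to 8821 FPKM in bcat-1(hh58) against 7248 to 7972 FPKM in wild-type. Of the early embryonic zygotic genes 30 of 62 tested were higher and 0 lower, against 5 higher and 1 lower after quantile normalization and 16 higher without wild-type replicate 2, with pes-8 at 2.60 ± 0.26 and sdz-28 at 1.44 ± 0.40, of which sdz-28 was not called after quantile normalization. Day 1 adults carry embryos, and summed embryonic markers overlapped at 7.37 to 17.4 FPKM in bcat-1(hh58), against 3.74 to 8.55 FPKM in wild-type. The part of embryo number in these calls was not tested. Of 36 cell cycle genes, none was higher and 5 were lower, with 3, 15 and 2 lower without bcat-1(hh58) replicates 1, 2 and 3 and 3 lower without wild-type replicate 4.

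For several of these genes bcat-1(hh58) was set against the other single mutants in the same limma fit, in which 19.5% of tested genes were called against ivd-1(tm6784) (13.2% higher and 6.29% lower in bcat-1(hh58)) and 57.4% against hecd-1(tm2371) (33.9% higher and 23.5% lower). irg-5 was at 10.99 ± 2.34 FPKM in ivd-1(tm6784) and 4.57 ± 1.82 FPKM in hecd-1(tm2371) (SD, n = 4 each), and bcat-1(hh58) was higher than both, by 4.82 ± 0.30 and 6.05 ± 0.30 on the log2 scale (SE). asns-2 was at 27.7 ± 4.96 FPKM in ivd-1(tm6784) and 17.6 ± 3.16 FPKM in hecd-1(tm2371), and bcat-1(hh58) was higher by 3.21 and 3.85. lipl-1 and mtl-1 were below 2 FPKM on average in both other strains, and bcat-1(hh58) exceeded ivd-1(tm6784) by 4.47 and 3.63 for these genes. parg-2 was at 6.62 ± 2.26 FPKM in ivd-1(tm6784) and 0.331 ± 0.107 FPKM in hecd-1(tm2371), with bcat-1(hh58) higher by 3.37 and 6.42. These rises over both strains all passed the test (limma adjusted p of 3.8e-07 or less).

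Among the falls, folt-2 was at 399.6 ± 36.5 FPKM in ivd-1(tm6784) and 281 ± 21.6 FPKM in hecd-1(tm2371), and bcat-1(hh58) was lower, with log2 fold changes of -2.80 and -2.296. For hphd-1 these were -0.96 and -1.49, and for acdh-1 -1.09 and -1.16. acdh-2 differed most from ivd-1(tm6784), where it was at 349 FPKM on average, with a log2 fold change of -8.83, and by -6.30 from hecd-1(tm2371). For dhs-25 the log2 fold change was -4.17 against ivd-1(tm6784) and -2.40 against hecd-1(tm2371). Smaller differences from ivd-1(tm6784) were found for hpd-1 (0.41), hgo-1 (0.58) and lgg-1 (0.47), all called. All 5 genes with falls were called in both comparisons.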

How the data were processed

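RNA of whole day 1 adults of 5 strains (4 samples each) was sequenced by the authors as stranded, poly-A-selected, paired-end libraries. The deposited values are FPKM per gene, which the authors made with Tophat2 and Cufflinks on an Ensembl annotation. CASAVA is also named in the submitters' processing notes. The authors tested counts with DESeq2; the counts were not used here. Of 46284 genes, 24591 were at 0 in all samples. An exact 0 can be a failed estimate. Read depth is unknown, so counting error could not be given.

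log2(FPKM + 0.5) was fitted with limma 3.58.1 (R 4.3.3; lmFit, eBayes with a trend) over all 20 samples with strain as the only term. The two-sided p-values were adjusted by the Benjamini-Hochberg method over the 15957 genes with at least 0.5 FPKM in at least 4 samples. On simulated data with this design the fit recovered 94% of changes of 1.5 and 84% of changes of 0.75 on the log2 scale. Lists were described by counts and medians, with no test of a list. Named genes were bcat-1 and ivd-1, the 12 largest called rises and falls (mean of at least 1 FPKM in either strain, no overlap between strains, no 0 beside a value of 10 FPKM or more), by the same conditions the 3 largest rises and falls of each list, any member of lists of up to 24, the member of each list with the highest wild-type mean, and the 8 genes with the largest SD in bcat-1(hh58) (mean of at least 5 FPKM, no value of 0). The comparison, the 71 lists and this rule were chosen with earlier results of these data known. Alternatives were other pseudocounts, filters, scalings, thresholds, sample weights, smaller sets of samples and the replicate number as a block. Gene positions and overlaps are from the Ensembl annotation of WBcel235.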

Additional observations from a re-analysis of the deposited data

Results flagged for a closer look

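Of 374 groups of 4 values examined (167 named genes and 20 lists in each strain), 35 held a sample whose gap to its nearest neighbour over the group's range exceeded Dixon's 95% critical value for 4 samples. Chance flags about 1 in 20 groups. No explanation was tested for any of them.

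Most of these samples were wild-type, with 19 in replicate 1. It was the highest wild-type sample for the collagens col-88 (31.1 FPKM), col-91 (16.9), col-175 (17.6), dpy-3 (0.70) and col-54 (0.383), the cuticlin gene cut-2 (9.43), the hedgehog-related gene grl-16 (14.0), abu-11 (3.00), the peptide genes nlp-34 (10.96) and nlp-30 (2.11), and Y48G8AL.12 (37.1), R12E2.7 (22.8), R12E2.14 (23.7), R12E2.15 (25.6), C02E7.7 (54.5), F41F3.3 (82.4) and Y47D7A.15 (27.4). It was the lowest for col-103 (796.5 FPKM) and glh-1 (244 FPKM).

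Wild-type replicate 3 stood apart in 10 groups. It was low for hach-1 (280.3 FPKM), hphd-1 (351 FPKM) and the mean of the propionate shunt list (-0.20, log2 relative to the wild-type mean). It was high for acox-1.5 (15.6 FPKM), ugt-31 (2.55), gst-38 (4.41), lys-2 (102.6), skr-3 (43.6), dod-21 (0.0996) and cld-1 (0.197).

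In bcat-1(hh58), replicate 2 was high for acdh-2 (0.466 FPKM) and low for col-142 (239 FPKM), replicate 3 was low for sqrd-1 (1.82 FPKM) and high for R12E2.15 (388 FPKM) and nlp-34 (118 FPKM), and replicate 4 was low for clec-10 (3.96 FPKM).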

How the results depend on the processing

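Against wild-type, 7055 genes were called, 7884 with median-of-ratios scaling, 7325 with quantile normalization and 6094 to 7853 with 1 sample left out. A fit of only the bcat-1(hh58) and wild-type samples called 6160 genes. Of called genes 76.6% were higher, but 49.76% with median-of-ratios and 34.63% with quantile normalization. Without bcat-1(hh58) replicate 2 and wild-type replicate 1, chosen after seeing the data, 7360 genes were called, and, also chosen after seeing the data, 7012 without genes whose values mixed 0 with 10 FPKM or more. Among 3335 values of named genes under alternatives, 3284 kept direction and call, 49 lost the call and 2 reversed under median-of-ratios (B0272.3, -0.0417; hsp-4, which was not called, -0.12); the cause was not tested. Of the cell type markers other than msp genes, 19 were called on the deposited scale and 11 after quantile normalization. Against ivd-1(tm6784), 3110 genes were called (2392 to 3483 with 1 sample left out), but 1783 in a fit of only those strains (fewer samples) and 1708 at an adjusted p of 0.01 or less. Against hecd-1(tm2371) leaving out 1 sample gave 8175 to 9765. The spread among bcat-1(hh58) replicates was 0.196, and 0.146 to 0.214 with 1 replicate left out.

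Mutant and wild-type samples of the same replicate number did not deviate together as a whole (correlations of 0.0837, -0.226, 0.0957 and 0.0868 for numbers 1 to 4). Even so, the propionate shunt mean was lowest in replicate 3 of all 5 strains, at -0.20 for wild-type and -1.66 for bcat-1(hh58). The labels do not tie a number to an experiment, and whether samples of the same number shared one was not tested. With a replicate block 6969 genes were called against wild-type, 1 named gene (col-19) changed its call and 5 counts of list members moved by over 1.5 times. FPKM carry no read depth, which limits what can be said of genes near 0.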

Other observations

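Some gene groups of the comparison of bcat-1(hh58) with wild-type belong to none of the functions described in the report. Of the basement membrane genes 9 of 20 tested were higher and 0 lower on the deposited scale, with 0 higher and 2 lower after quantile normalization, where 30% of all tested genes were lower. Of the dauer genes of the TGF-beta and DAF-12 pathways 9 of 18 tested were higher and 0 lower (2 higher and 4 lower after quantile normalization). Of the nematode-specific peptide genes 18 of 33 tested were higher and 3 lower, of the argonautes 4 of 19 tested were higher and 7 lower, of the chitinase genes 9 of 16 tested were higher and 1 lower and of the chemoreceptor genes that passed the expression filter 10 of 44 tested were higher and 3 lower. After quantile normalization the chemoreceptor calls were 3 higher and 13 lower, and the chitinase calls 3 higher and 4 lower. Muscle genes had 1 call in each direction among 23 members.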
